A study of Homo sapiens with 6 samples.

Results

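Expression of 9 genes of extracellular matrix proteolysis was followed through RNA-seq of SW480 cells, a line established from a human colon adenocarcinoma. They were 3 matrix metalloproteinases (MMP7, MMP14 and MMP15), the plasminogen activators PLAU and PLAT, the urokinase receptor PLAUR, and the metalloproteinase inhibitors TIMP1, TIMP2 and TIMP3. These 9 of the 56303 genes in the count table were taken from a list of names. That list was chosen with earlier results of these data known. The study silenced RBM39, an RNA-binding protein that acts in pre-mRNA splicing, and 3 libraries carried a control hairpin (shCtrl, labelled WT) while 3 carried a hairpin against RBM39 (shRBM39, labelled RBM39 knockdown). Both groups were lentivirus-infected SW480 cells grown in serum-containing medium and selected with puromycin as stable clonal lines. How many clones each group held is not stated, so the line and the knockdown cannot be told apart. The study describes 3 independent replicate experiments per group, without saying how the cultures were kept apart, and the p-values measure the spread between these libraries.

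Matrix metalloproteinases are zinc-dependent enzymes, made as inactive precursors, that cut collagens, laminins and other matrix proteins. MMP7 is a small secreted enzyme known from glandular epithelium and intestinal tumors, whereas MMP14 and MMP15 sit in the cell membrane, where MMP14 activates the precursor of MMP2 together with TIMP2. PLAU (urokinase) and PLAT (tissue plasminogen activator) cleave plasminogen to plasmin, and PLAUR holds urokinase at the cell surface. TIMPs block metalloproteinases by inserting their first residues into the active site, and TIMP3 is the one that binds to the matrix.

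The coding stretches that give these proteins their activity are shown first, since they define the families compared. In each metalloproteinase the capitals mark the codons of the 3 zinc-binding histidines and of the catalytic glutamate, within 33 bases of the canonical transcript (GENCODE v44, GRCh38, coding strand).
MMP7: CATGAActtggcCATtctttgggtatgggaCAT
MMP14: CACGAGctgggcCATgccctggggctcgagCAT
MMP15: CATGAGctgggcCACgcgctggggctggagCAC
The stretch of MMP14 equalled that of MMP15 at 28 of 33 bases (84.8%), and MMP7 equalled each of them at 22 of 33 (66.7%). In PLAU the capitals mark the codon of the active-site serine.
PLAU: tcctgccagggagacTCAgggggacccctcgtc
In the TIMPs the capitals mark cysteine codons at the start of the mature inhibitor, the end that enters the protease.
TIMP1: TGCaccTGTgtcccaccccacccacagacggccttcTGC
TIMP2: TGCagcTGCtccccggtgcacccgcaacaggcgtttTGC
TIMP3: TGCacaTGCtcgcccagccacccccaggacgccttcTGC
Over these 39 bases TIMP1 and TIMP2 shared 64.1%, TIMP1 and TIMP3 shared 69.2%, and TIMP2 and TIMP3 shared 66.7%. Across the 36 pairs of the 9 genes the longest run of identical bases between canonical transcripts was 16 bases, between MMP14 and MMP15, and 0 pairs shared over 30 bases.

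The libraries held 18042924 to 20428901 counts each, of which RBM39 itself, the targeted gene, gave 441, 448 and 435 CPM (counts relative to library size, scaled by edgeR's TMM factors) in shCtrl and 266, 276 and 292 CPM in shRBM39. RBM39 was lower in all 3 shRBM39 libraries, with a log2 fold change of -0.67 (SE 0.04, edgeR adjusted p = 1.24e-16). All 10 colon epithelial markers had counts and their summed RPKM was 2679 to 2832 in shCtrl and 2984 to 3084 in shRBM39, where RPKM are reads relative to exon length and library size. KRT8 and KRT18 held most of that sum, and KRT20, CDH17 and LGALS4 were each under 1 RPKM. Single markers went both ways, with log2 fold changes of -2.13 for CDX2, -1.34 for CDH17, -0.39 for CDH1 and -0.09 for VIL1, and of 1.82 for KRT20, 0.43 for KRT8 and 0.24 for KRT18 (all called). Fibroblast markers (7 genes) summed to 2.34 to 2.75 RPKM in shCtrl and 2.64 to 3.02 RPKM in shRBM39. Leukocyte markers (6 genes) summed to 8.09 to 8.89 and 8.29 to 9.31 RPKM, and endothelial markers (4 genes) to 0.440 to 0.597 and 0.761 to 0.930 RPKM. PTPRC and KDR were at 0 in all 6 libraries, while CD68 had a mean of 7.38 RPKM. Of the 8 tested genes of these 3 lists, LYZ, PECAM1, VWF, COL1A1 and THY1 were called higher (log2 fold changes of 1.03, 0.79, 1.39, 0.81 and 1.99). Of all tested genes, 59.1% were called and 29.2% were called higher. LUM, PDGFRB and CD68 did not pass the test (log2 fold changes of -0.08, 0.22 and 0.09). THY1 and VWF were low, with means of 0.107 and 0.0975 RPKM. The part of such cells or markers in the results was not tested. In bulk RNA, fewer cells of a type and less RNA per cell cannot be told apart.

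All 9 genes passed the filter on low counts, and 7 of the 9 (77.8%) were called at an adjusted p under 0.05 by edgeR's quasi-likelihood test, beside 59.1% of all 18243 genes tested. Of the 9 genes, 5 rose (PLAU, PLAUR, PLAT, TIMP1 and TIMP3), against 29.2% of all tested genes called higher, and 2 fell (MMP14 and TIMP2), against 29.9% called lower. MMP7 and MMP15 did not pass the test. The CPM of the groups did not overlap for 6 of the 9 genes, beside 63.3% of all tested genes. The median absolute log2 fold change was 0.34 over the 9 genes and 0.30 over all tested genes, and the medians with sign were 0.24 and -0.01. Proteases and inhibitors were found on both sides: 1 metalloproteinase and 1 TIMP fell, and both plasminogen activators and 2 TIMPs rose.

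**Figure D1:**
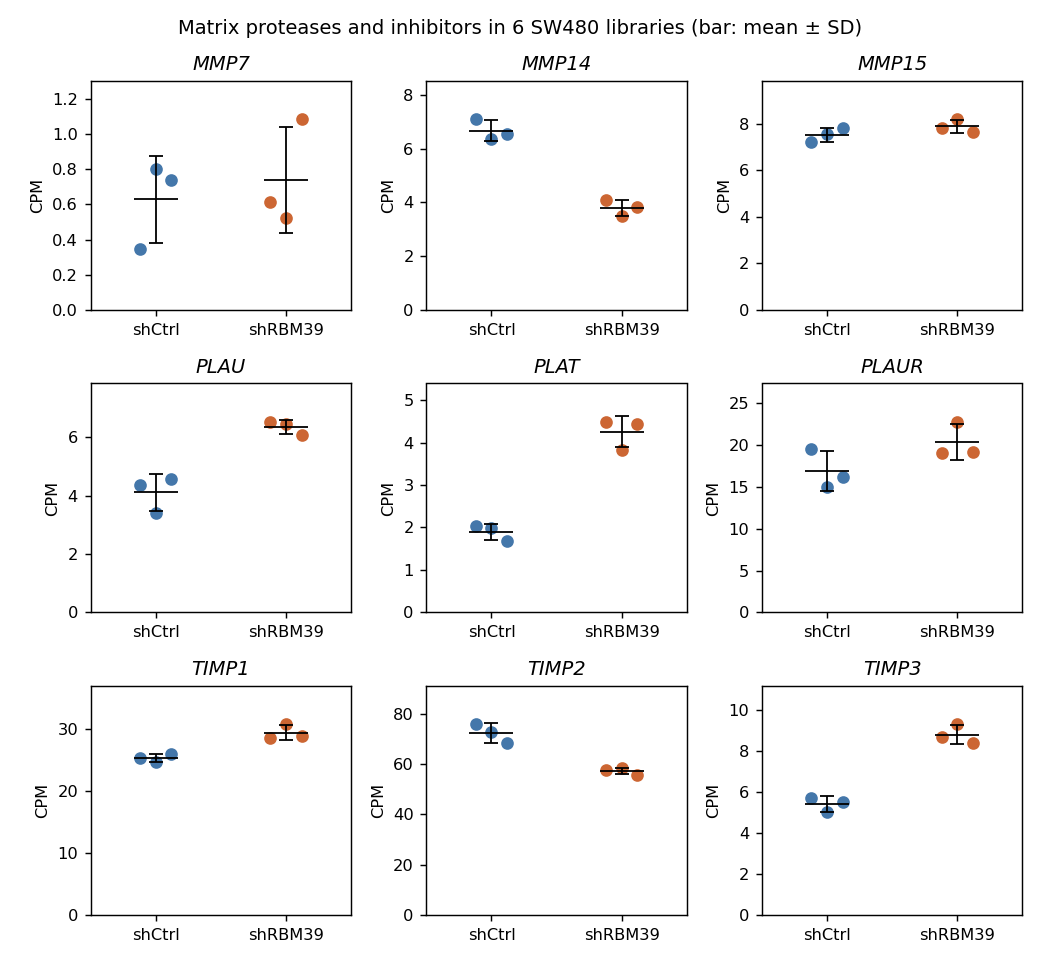
CPM of each of the 9 genes by library (points, 3 shCtrl and 3 shRBM39), with the group mean as a line and its SD as the error bar; each panel has its own axis from 0. The 3 shRBM39 points of MMP14 (3.49 to 4.08 CPM) lie below the 3 shCtrl points (6.36 to 7.10 CPM), those of PLAT lie above, and the groups of MMP7, MMP15 and PLAUR overlap.

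MMP14, the membrane-type metalloproteinase best known for pericellular collagen cleavage, had the largest fall of the 9 genes. Its values were 7.10, 6.36 and 6.55 CPM in shCtrl and 4.08, 3.49 and 3.82 CPM in shRBM39, from 133 to 143 counts and 60 to 80 counts per library. The highest shRBM39 library was below the lowest shCtrl library. The mean went from 6.67 ± 0.383 to 3.80 ± 0.300 CPM (SD, n = 3), and the fitted level fell by 42.8%, a log2 fold change of -0.81 (SE 0.12, 95% interval -1.06 to -0.55, edgeR adjusted p = 9.64e-07). Of all tested genes, 88.9% had a smaller absolute change. MMP14 lies at chr14:22836557-22849027 on the plus strand (GRCh38, as for all loci here).

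MMP15, the membrane-type metalloproteinase closest to MMP14 in the sequence above, gave 7.20, 7.54 and 7.83 CPM in shCtrl and 7.81, 8.19 and 7.64 CPM in shRBM39. The groups overlapped, with means of 7.52 ± 0.316 and 7.88 ± 0.282 CPM (SD, n = 3). Its log2 fold change of 0.07 (95% interval -0.14 to 0.27, edgeR adjusted p = 0.591) did not pass the test, and its sign turned to -0.058 when libraries were scaled by their totals alone. MMP15 lies at chr16:58025566-58046901, plus strand. The intervals of MMP14 and MMP15 did not overlap, but the difference between the genes was not tested directly.

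MMP7 was close to the detection limit of these libraries, with 7, 17 and 15 counts in shCtrl and 12, 9 and 21 in shRBM39. Its CPM were 0.347, 0.801 and 0.738 against 0.613, 0.523 and 1.08, so that the highest and the lowest value came from different groups and the ranges overlapped. A count of 0 would have allowed 0.141 to 0.174 CPM per library on the same scale (3 counts, counting error only). The log2 fold change was 0.24 (SE 0.35, 95% interval -0.47 to 0.95, edgeR adjusted p = 0.575), and its sign depended on single libraries: it was -0.04 without shCtrl replicate 1 and -0.14 without shRBM39 replicate 3. These counts, with their spread between libraries, did not tell apart changes within that interval. MMP7 lies at chr11:102520508-102530753, minus strand.

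PLAT, which encodes tissue plasminogen activator, had the largest rise of the 9 genes and more than 95.8% of all tested genes in absolute log2 fold change. The 3 shCtrl libraries gave 2.03, 1.98 and 1.67 CPM (41, 42 and 34 counts) and the 3 shRBM39 libraries 4.49, 3.83 and 4.44 CPM (88, 66 and 86 counts). Every shRBM39 library was above every shCtrl library. The mean rose from 1.90 ± 0.194 to 4.26 ± 0.366 CPM (SD, n = 3), 2.25-fold, with a log2 fold change of 1.17 (SE 0.16, 95% interval 0.84 to 1.499, edgeR adjusted p = 1.53e-07). PLAT lies at chr8:42175233-42207724, minus strand. It was a low gene, with a mean RPKM over all 6 libraries above only 11.1% of tested genes.

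PLAU, the gene of urokinase, gave 4.37, 3.39 and 4.58 CPM in shCtrl and 6.53, 6.45 and 6.09 CPM in shRBM39. The groups did not overlap, and the means were 4.11 ± 0.633 and 6.36 ± 0.234 CPM (SD, n = 3). The rise was 1.55-fold (log2 fold change 0.63, SE 0.13, 95% interval 0.37 to 0.89, edgeR adjusted p = 6.84e-05). PLAU lies at chr10:73909177-73917497 on the plus strand, and 916 of its exon bases (31.1%) are shared with C10orf55 on the opposite strand. C10orf55 had 18 to 46 counts per library against 72 to 128 for PLAU, with a log2 fold change of 0.53 (edgeR adjusted p = 0.0903). The libraries were stranded, but the strand setting of the counting is not given in the sources used here, so the part of these reads in the PLAU count was not tested.

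PLAUR, the urokinase receptor, rose by less. It gave 19.6, 15.03 and 16.1 CPM in shCtrl and 19.1, 22.8 and 19.2 CPM in shRBM39, and shCtrl replicate 1 lay above 2 of the shRBM39 libraries. The means were 16.9 ± 2.36 and 20.3 ± 2.11 CPM (SD, n = 3), with a log2 fold change of 0.26 (SE 0.08, 95% interval 0.10 to 0.43, edgeR adjusted p = 0.00652). The call was lost without shCtrl replicate 2 and without shRBM39 replicate 2 (0.18 in each case), and with libraries scaled by their totals alone (0.14). PLAUR lies at chr19:43646095-43670547, minus strand.

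TIMP2, the inhibitor that also takes part in MMP2 activation by MMP14, fell. Its values were 75.8, 72.9 and 68.3 CPM in shCtrl and 57.4, 58.3 and 55.7 CPM in shRBM39, so that each shRBM39 library was below each shCtrl library. The mean went from 72.3 ± 3.81 to 57.2 ± 1.33 CPM (SD, n = 3), and the fitted level fell by 21.0%, a log2 fold change of -0.34 (SE 0.05, 95% interval -0.43 to -0.25, edgeR adjusted p = 9.45e-08). TIMP2 lies at chr17:78852977-78925387 on the minus strand. It shares 198 exon bases (3.52%) with CEP295NL on the same strand and 367 (6.52%) with RP11-323N12.5 on the opposite one. Neither neighbour passed the test, with log2 fold changes of 0.07 and -0.14 (edgeR adjusted p = 0.337 and 0.299). All 367 bases of RP11-323N12.5 lie within TIMP2 exons. As for PLAU, the part of shared reads in these counts was not tested.

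TIMP3, the matrix-bound inhibitor, rose from 5.71, 4.99 and 5.51 CPM in shCtrl to 8.68, 9.30 and 8.36 CPM in shRBM39. No shRBM39 library fell within the shCtrl range. The means were 5.40 ± 0.369 and 8.78 ± 0.474 CPM (SD, n = 3), a 1.62-fold rise (log2 fold change 0.70, SE 0.11, 95% interval 0.48 to 0.92, edgeR adjusted p = 8.62e-07). TIMP3 lies at chr22:32801701-32863043 on the plus strand.

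TIMP1, a secreted inhibitor of broad range, moved least among the genes called. It gave 25.3, 24.7 and 25.9 CPM in shCtrl and 28.5, 30.8 and 28.9 CPM in shRBM39. The groups did not overlap on this scale or in RPKM, with means of 25.3 ± 0.627 and 29.4 ± 1.23 CPM (SD, n = 3). The log2 fold change was 0.21 (SE 0.06, 95% interval 0.10 to 0.33, edgeR adjusted p = 0.00194). With library totals alone it was 0.09 and the call was lost. TIMP1 lies at chrX:47582313-47586789, plus strand.

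**Figure D2:**
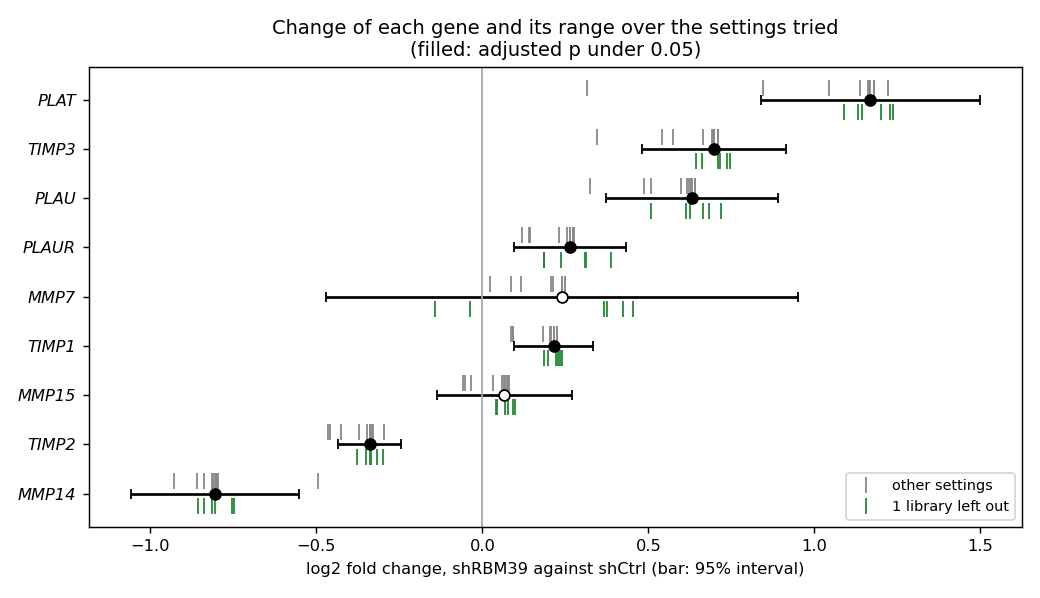
Log2 fold change of shRBM39 against shCtrl for the 9 genes (points, filled where the adjusted p was under 0.05) with 95% intervals as bars; grey ticks above are other processing settings and green ticks below are fits with 1 library left out. PLAT (1.17) and MMP14 (-0.81) are the extremes, and the ticks of MMP7 and MMP15 fall on both sides of 0.

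Levels of different genes were compared per length of exon, on the deposited RPKM scale. In shCtrl the order of means ran from TIMP1 (17.1 ± 0.423 RPKM, SD, n = 3) and TIMP2 (13.4 ± 0.631) through PLAUR (3.95 ± 0.513), MMP15 (1.77 ± 0.0872), MMP14 (1.56 ± 0.0749), PLAU (1.45 ± 0.218) and TIMP3 (1.22 ± 0.0745) to PLAT (0.298 ± 0.0295) and MMP7 (0.283 ± 0.112). The library values of MMP14 and PLAU, of PLAU and TIMP3, and of PLAT and MMP7 overlapped, so these neighbours were not separated. The 2 most abundant of the 9 transcripts were thus inhibitors, and no protease among the 9 genes reached 2 RPKM in shCtrl. Some proteases outside the 9 did, with shCtrl means of 30.5 RPKM for ST14, 26.8 for CTSB and 3.14 for MMP17. In shRBM39 the first 3 places were the same, with TIMP1 at 18.25 ± 0.714 RPKM, TIMP2 at 9.71 ± 0.214 and PLAUR at 4.365 ± 0.441. PLAU (2.06 ± 0.0763) and TIMP3 (1.825 ± 0.0947) then stood above MMP15 (1.71 ± 0.0575) and MMP14 (0.814 ± 0.0663), and TIMP3 overlapped with MMP15. PLAT (0.615 ± 0.0543) no longer overlapped with MMP7 (0.305 ± 0.124).

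**Figure D3:**
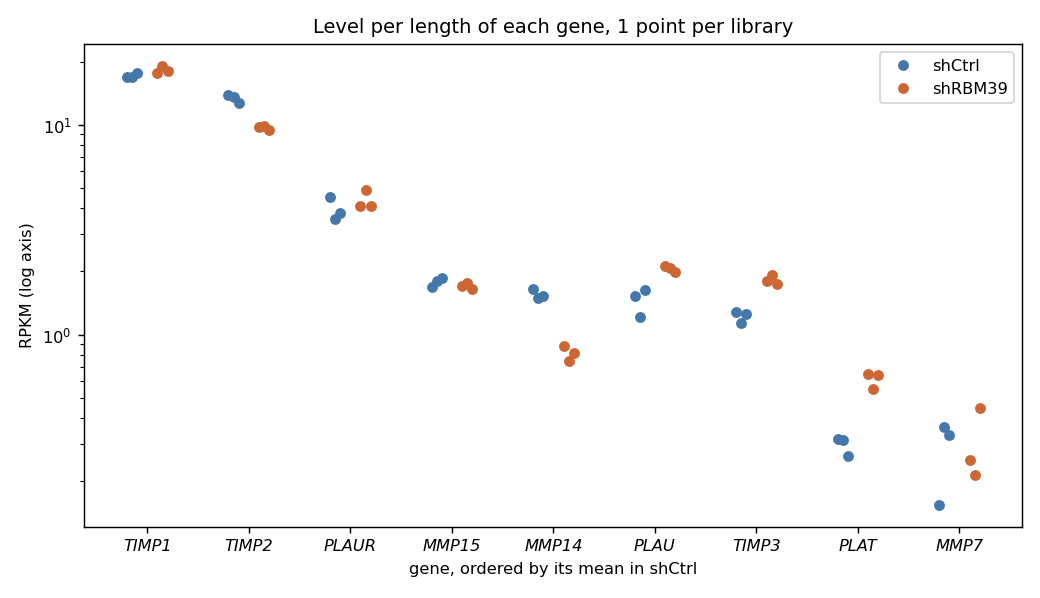
RPKM of the 9 genes per library on a log axis, ordered by the shCtrl mean, with shCtrl and shRBM39 side by side. TIMP1 and TIMP2 lie above the other genes in both groups, and MMP7 and PLAT lie lowest in shCtrl.

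The makeup of the TIMP transcripts shifted within the family. Of the summed RPKM of the 3 genes, TIMP1 held 52.8% to 55.8% in the shCtrl libraries and 60.5% to 61.8% in the shRBM39 libraries. TIMP2 went from 40.2% to 43.25% down to 32.0% to 33.4%, and TIMP3 from 3.61% to 3.98% up to 5.96% to 6.24%. These shares do not depend on the scaling between libraries, and for each gene the ranges of the groups were apart. The sum itself was 31.7 ± 0.334 RPKM in shCtrl and 29.8 ± 0.944 RPKM in shRBM39 (SD, n = 3), but per kilobase of TMM-scaled CPM it was 30.4 ± 0.596 and 31.1 ± 1.06, with overlapping values, so its direction rested on the scaling. The summed MMP7, MMP14 and MMP15 level was 3.61 ± 0.125 RPKM in shCtrl and 2.825 ± 0.0965 RPKM in shRBM39, and it was also lower on the TMM scale (3.47 ± 0.0942 and 2.95 ± 0.0963). Of these 3 genes only MMP14 was called. The sum leaves out other metalloproteinases such as MMP17 (3.14 ± 0.186 RPKM in shCtrl and 1.33 ± 0.226 RPKM in shRBM39). The summed PLAU and PLAT level was 1.75 ± 0.200 and 2.68 ± 0.0850 RPKM, and higher on the TMM scale too (1.68 ± 0.201 and 2.80 ± 0.0837).

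Ratios within a library were formed between each protease and a partner, since they are free of the scaling between libraries. In all, 6 ratios were compared by two-sided exact permutation tests over the 6 libraries, where 3 against 3 cannot go below p = 0.1. MMP14 relative to TIMP2 was 0.118, 0.110 and 0.121 in shCtrl and 0.0897, 0.0754 and 0.0865 in shRBM39, a difference of -0.48 on the log2 scale (exact p = 0.1, adjusted over the 6 ratios 0.15). MMP15 relative to TIMP2 was 0.121, 0.132 and 0.146 in shCtrl and 0.173, 0.179 and 0.175 in shRBM39 (log2 difference 0.41, exact p = 0.1, adjusted 0.15). Neither ratio overlapped between groups, and both have TIMP2 as their denominator, which itself fell, while MMP15 did not pass the test.

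Urokinase relative to PLAT was 4.82, 3.85 and 6.14 in shCtrl and 3.26, 3.77 and 3.08 in shRBM39 (log2 difference -0.53, exact p = 0.1, adjusted 0.15). Urokinase relative to its receptor overlapped between groups (log2 difference 0.37, exact p = 0.2, adjusted 0.24), as did MMP7 relative to TIMP1 (log2 difference 0.04, exact p = 1.0).

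**Figure D4:**
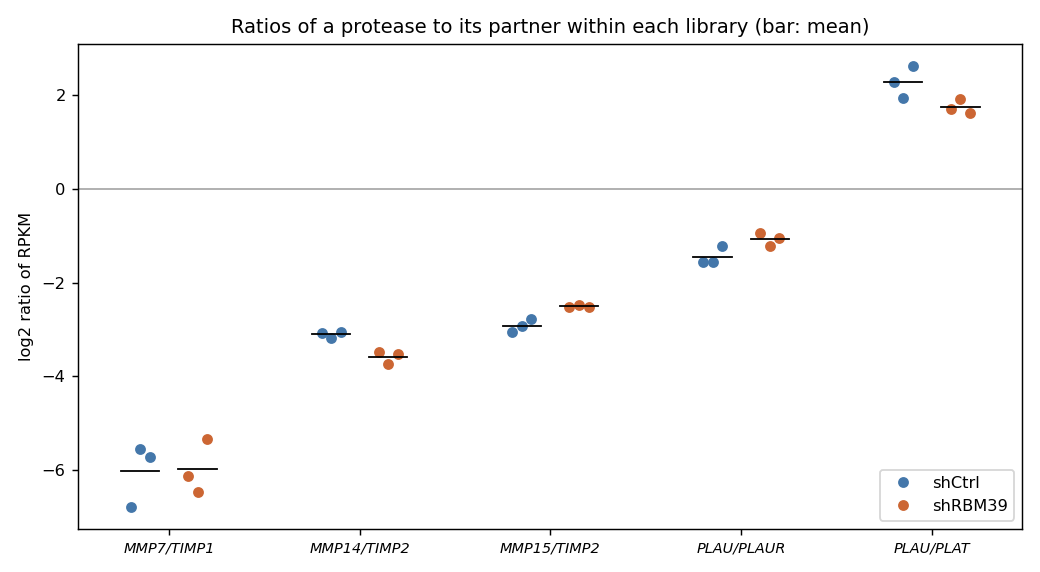
Log2 ratio of RPKM of a protease to its partner in each library (points, 3 per group), with the group mean as a bar. MMP14/TIMP2 and PLAU/PLAT are lower and MMP15/TIMP2 higher in shRBM39, and the groups of MMP7/TIMP1 and PLAU/PLAUR overlap.

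The genes around the plasminogen activators came from a list of 7 partners, of which 5 were tested and all 5 were called, beside 59.1% of all tested genes, 3 higher and 2 lower. ANXA2, a cell-surface docking protein of plasminogen and PLAT, rose from 271 ± 14.9 to 394 ± 11.1 CPM (SD, n = 3, log2 fold change 0.54, edgeR adjusted p = 7.67e-14). Its partner S100A10 and the enolase ENO1, both known plasminogen receptors, were higher by only 0.15 and 0.16 on the log2 scale (edgeR adjusted p = 0.00302 and 0.000374), and both calls were lost with library totals alone (0.03 and 0.04). The plasminogen receptor PLGRKT fell by 0.54 on the log2 scale and LRP1, which clears activator and inhibitor complexes, fell by 0.41 (edgeR adjusted p = 2.94e-06 and 1.87e-09), with a value of -0.24 for LRP1 after correction for GC content and length. Plasminogen itself (PLG) had at most 1 count in a library.

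Of 13 other inhibitors, 9 were tested and 5 were called (55.6%, beside 59.1% of all tested genes). All 5 were lower, beside 29.9% of all tested genes called lower. Those that did not pass lay on both sides of 0 (log2 fold changes of -0.24 to 0.25). SERPINE2, a serpin that inhibits urokinase, fell by 0.46, the cystatin CST3 fell by 0.31, and SPINT1, the membrane inhibitor of matriptase, fell by 0.42 on the log2 scale (edgeR adjusted p = 7.42e-07, 1.78e-06 and 8.27e-11). SPINT2 went from 182 to 174 CPM, without overlap of the groups, and did not pass the test (log2 fold change -0.07, edgeR adjusted p = 0.126). It did pass with upper-quartile scaling (-0.10), with library totals alone (-0.19) and on both RPKM scales (-0.18 and -0.19). A2M, a general protease trap named here after its values were seen, had 68, 49 and 66 counts in shCtrl and 6, 10 and 6 in shRBM39 (log2 fold change -2.90, edgeR adjusted p = 4.34e-11). The serpin gene SERPINB2 had at most 3 counts in a library.

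Most other matrix metalloproteinases were barely detected. Of the 20 other than those above, 15 had at most 10 counts in every library and were not tested, and 5 of these, MMP8, MMP9, MMP12, MMP26 and MMP27, were at 0 throughout. MMP2, the precursor that MMP14 and TIMP2 act on, had 1 count in all 6 libraries together. Of the 5 tested, 4 were called, beside 59.1% of all tested genes, 3 lower and 1 higher. MMP17, a GPI-anchored metalloproteinase, fell from 12.05 ± 0.608 to 5.57 ± 0.946 CPM (SD, n = 3, log2 fold change -1.12, edgeR adjusted p = 3.98e-11), a larger value than for MMP14. MMP24 was at 4.95 and 5.67 CPM and did not pass (edgeR adjusted p = 0.17). Chosen after their values were seen, MMP11 had 36, 44 and 37 counts in shCtrl and 12, 5 and 10 in shRBM39 (log2 fold change -1.97), MMP19 had a log2 fold change of -0.43 and MMP25 one of 0.71 (edgeR adjusted p = 2.24e-07, 0.00523 and 0.0171). The call of MMP19 was lost without shRBM39 replicate 1 (-0.30), and that of MMP25 without shRBM39 replicate 1 (0.41), without shCtrl replicate 3 (0.64), with DESeq2 (0.71) and on both RPKM scales (0.13 and 0.40).

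All 6 tested genes of the 7 activators and partners of MMP14 were called, beside 59.1% of all tested genes, 4 higher and 2 lower. FURIN, the proprotein convertase that activates the MMP14 precursor, fell from 27.2 ± 0.733 to 15.04 ± 1.01 CPM (SD, n = 3, log2 fold change -0.85, SE 0.07, edgeR adjusted p = 4.74e-13), and the tight junction gene CLDN1 fell by 0.45 on the log2 scale (edgeR adjusted p = 1.09e-10). SDC1, a heparan sulfate proteoglycan that carries MMP7, rose from 55.0 ± 0.829 to 105 ± 6.14 CPM (SD, n = 3, log2 fold change 0.93, edgeR adjusted p = 1.57e-18). BSG, the metalloproteinase inducer EMMPRIN, rose from 352 to 475 CPM (log2 fold change 0.43, edgeR adjusted p = 2.8e-12). CD44, a hyaluronan receptor that binds MMP14 and is named after its values were seen, had a log2 fold change of 0.85 (edgeR adjusted p = 1.76e-05).

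Of 9 membrane serine proteases, 5 were tested and all 5 were called, 4 lower and 1 higher, beside 29.9% of all tested genes called lower and 29.2% higher. ST14 (matriptase), which can activate pro-urokinase, fell from 127 ± 16.0 to 87.2 ± 1.58 CPM (SD, n = 3, log2 fold change -0.55, edgeR adjusted p = 1.42e-10), and TMPRSS3 fell from 15.5 to 8.42 CPM (log2 fold change -0.88, edgeR adjusted p = 3.8e-10). TMPRSS2 had a log2 fold change of 0.23 (edgeR adjusted p = 0.0046), a call lost without shRBM39 replicate 1 (0.16), with library totals alone (0.11) and on both RPKM scales (0.08 and 0.10). HPN and PRSS8, named after their values were seen, had log2 fold changes of -1.23 and -2.03 (edgeR adjusted p = 1.72e-07 and 0.000566). PRSS8 had few reads, with 11, 20 and 15 counts in shCtrl and 0, 4 and 6 in shRBM39. Its value was -1.42 without shRBM39 replicate 1.

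Among ADAM and ADAMTS proteases, 7 of 12 were tested and 6 were called (85.7%, beside 59.1% of all tested genes), 3 higher and 3 lower. The sheddase ADAM9 fell from 102 to 60.6 CPM (log2 fold change -0.74, edgeR adjusted p = 4.69e-16), and the sheddases ADAM17 and ADAM10 fell by 0.44 and 0.30 on the log2 scale (edgeR adjusted p = 1.57e-08 and 7.33e-07), with a value of -0.14 for ADAM10 after correction for GC content and length. ADAM19 was higher by 0.25 (0.13 with library totals alone), and ADAMTS9, named after its values were seen, by 2.04 (edgeR adjusted p = 1.85e-05 and 3.17e-11). Of 7 cathepsins, 6 were tested and 4 were called (66.7%, near the 59.1% of all tested genes). Of these, 3 were higher and 1 lower, beside 29.2% and 29.9% of all tested genes. CTSB, a lysosomal cysteine protease also found outside tumor cells, fell from 191 to 109 CPM (log2 fold change -0.80, edgeR adjusted p = 2.45e-17), whereas CTSH, CTSL and CTSD had log2 fold changes of 0.74, 0.57 and 0.48 (edgeR adjusted p = 8.14e-07, 1.57e-10 and 1.57e-11). CTSZ was higher by 0.08 and did not pass (edgeR adjusted p = 0.0552), and its sign turned with library totals alone (-0.039). Over the 75 genes of the 7 lists, 43 were tested, 35 were called (81.4%, beside 59.1% of all tested genes), 15 higher and 20 lower, with a median log2 fold change of -0.07. The calls numbered 31 with library totals alone and 30 on either RPKM scale. The lists were written with earlier results of these data known, so these shares are not independent of that choice.

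**Figure D5:**
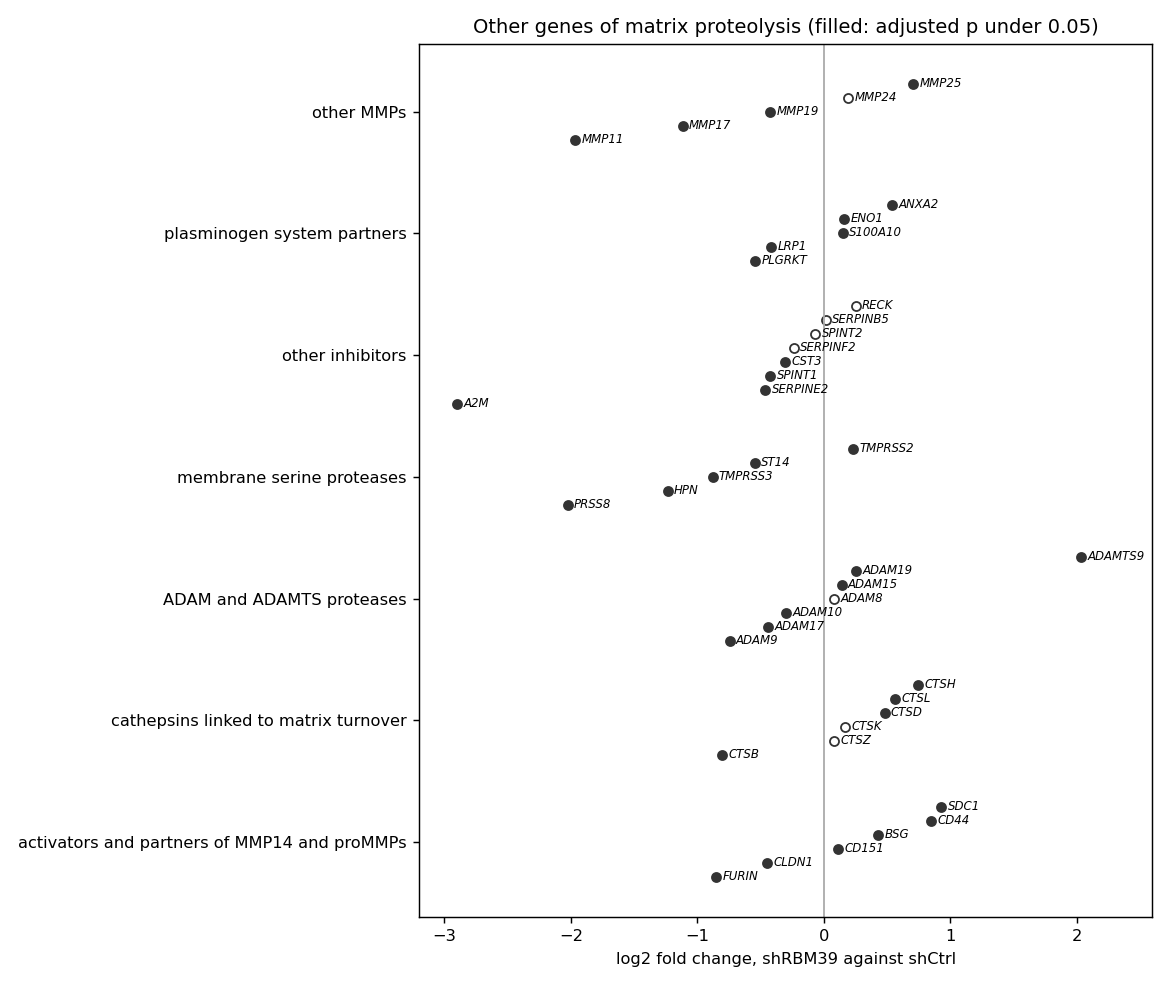
Log2 fold change of shRBM39 against shCtrl for tested genes of the 7 lists, 1 row of points per list, filled where the adjusted p was under 0.05. In the list of other inhibitors, which leaves out TIMP1, TIMP2 and TIMP3, the called genes lie to the left of 0. The other lists hold called genes on both sides.

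The tested genes whose centred log2 CPM profile over the 6 libraries lay closest to each of the 9 genes were sought in the 12057 genes that averaged 5 CPM or more. MMP7 and PLAT were below that level and were not compared. FNDC3A was closest to MMP14 (root mean square distance 0.0257 on the log2 scale) and SMAD5 was among the 2 closest to TIMP2 (0.0218). MCAM was closest to TIMP3 (0.0303), PRKAG2 to PLAU (0.0686), RP11-252A24.2 to PLAUR (0.062), LA16c-431H6.6 to TIMP1 (0.0142) and KIAA1161 to MMP15 (0.0062). These distances describe 6 points in 2 groups that the genes share.

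Promoter windows were read for 7 of the 9 genes, as the 250 bases before the start in the RefSeq table (GRCh38.p14). They are shown for MMP14, which fell, for TIMP3, which rose, and for MMP7, which holds the other motif. Capitals mark GC boxes, searched as GGGCGG on both strands, or AP-1 sites, searched as TGANTCA on both strands, and these motifs do not overlap each other here.
MMP14: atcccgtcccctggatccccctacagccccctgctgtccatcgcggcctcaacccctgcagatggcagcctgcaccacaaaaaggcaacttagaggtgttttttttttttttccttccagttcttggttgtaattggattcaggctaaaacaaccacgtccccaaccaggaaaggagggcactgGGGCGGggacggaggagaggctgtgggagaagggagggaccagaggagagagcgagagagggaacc
TIMP3: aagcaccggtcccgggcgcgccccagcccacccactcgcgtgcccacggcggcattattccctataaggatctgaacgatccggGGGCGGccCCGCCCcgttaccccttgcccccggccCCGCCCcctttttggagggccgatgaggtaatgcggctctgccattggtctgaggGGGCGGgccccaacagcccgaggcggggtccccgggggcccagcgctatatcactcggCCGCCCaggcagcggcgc
MMP7: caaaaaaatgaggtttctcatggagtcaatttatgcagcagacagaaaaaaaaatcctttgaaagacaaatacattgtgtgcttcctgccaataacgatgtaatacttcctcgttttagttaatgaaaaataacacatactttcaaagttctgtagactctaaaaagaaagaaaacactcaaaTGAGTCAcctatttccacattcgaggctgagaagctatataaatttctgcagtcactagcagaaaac
The windows are chr14:22836335-22836584 on the plus strand, chr22:32801455-32801704 on the plus strand and chr11:102530748-102530997 on the minus strand. Each of the 7 windows overlaps the locus counted for its gene, which begins before the start used here. The PLAU and PLAUR windows lie wholly within those loci. A GC box was found in 5 of the 7 windows, with 1 match in MMP14, 5 in MMP15, 3 in PLAU, 2 in TIMP1 and 5 in TIMP3, and in 42.6% of 35116 promoter windows of that length. An AP-1 site was found in MMP7, 67 bases before the start, and in PLAUR, 186 bases before it, and in 6.57% of all windows.

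Of the 1582 splicing records in the deposited event table, 0 concerned the 9 genes and 3 of the 75 list genes had one (SPINT1, ANXA2 and ADAM15). These records are of selected events, and the share of all genes with a record was not counted. Having 0 records is therefore no result about the 9 genes. The SPINT1 record is a skipped exon of 126 bases at chr15:40854397-40854522, included at 0.766, 0.745 and 0.788 in group 1 of the table and at 0.906, 0.869 and 0.885 in group 2, on at least 135 reads each. Which of these groups carried the knockdown hairpin is not given there, so no direction is stated.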

How the data were processed

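SW480 mRNA was sequenced from stranded libraries with unique identifiers, 3 shCtrl and 3 shRBM39, grouped by their titles. Raw counts, deposited by the authors for each gene symbol, came with exon coordinates and lengths. The submitters' processing notes list Trimmomatic 0.36, STAR 2.5.3a, featureCounts of Subread 1.5.1, edgeR 3.12.1 and GRCh38. Columns named NC were taken for shCtrl, as the series has no other control. Strand setting, the treatment of multi-mapped reads and collapsing of identifiers are not given in the sources used here. The RPKM table the authors deposited was recomputed from the counts and library totals to within a relative difference of 1.2e-13, so it adds no measurement. The splicing table the authors deposited holds read counts and inclusion levels of selected events.

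Low counts were removed by filterByExpr and group differences were fitted in R 4.3.3 by the quasi-likelihood method of edgeR 4.0.16 after TMM scaling, with no covariate. P-values were adjusted by Benjamini-Hochberg over 18243 genes, with a threshold of 0.05. CPM carry the TMM factors. Of 56303 rows, 22618 were 0 throughout. Library totals of 18042924 to 20428901 limit the precision of low genes. Ratios were tested by exact permutation. No 2 libraries agreed within sampling noise (chi-square per degree of freedom 2.11 to 4.21).

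The members, the pathway and marker lists and the tests were chosen with earlier results of these data known. Named by rule were the 9 members and, from each list, up to 4 called genes with the largest absolute change at a mean of at least 5 CPM and the 2 with the highest mean RPKM. Outside this rule, MMP11, MMP19, MMP25, A2M, HPN, PRSS8, ADAMTS9 and CD44 were named after their values were seen. Profile neighbours were the 2 genes at the smallest distance. Alternatives were upper-quartile scaling, DESeq2 1.42.0, scaling by totals, no filter, 10 or more counts in every library, limma 3.58.1 on log2(RPKM + 1) and log2(RPKM + 0.1), a block for the replicate number, leaving out each library, an adjusted p under 0.01, testing for a log2 change beyond 0.5, and a correction for GC content and length. The authors' tally of splicing events was not used. A listed gene and the ratio formed with it are counted but not reported here.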

Additional observations from a re-analysis of the deposited data

How the results depend on the processing

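MMP14 (-0.93 to -0.50), PLAT (0.31 to 1.24) and RBM39 (-0.79 to -0.56) kept direction and call under all alternatives, as did PLAU (0.32 to 0.72), TIMP2 (-0.46 to -0.30) and TIMP3 (0.35 to 0.75) except when tested for a change beyond 0.5 (log2). That test called 2 members, 2228 genes in all and 14 list genes. The smallest changes of MMP14, PLAT, PLAU and TIMP3 were on log2(RPKM + 1), which understates low genes. Scaling by library totals alone shifted the median of all genes from -0.01 to -0.14, and the share of calls that were higher from 49.4% to 33.9%, with 33.6% for both RPKM fits (median -0.13 on log2(RPKM + 0.1)). PLAUR and TIMP1 lost their calls under those 3 settings. MMP15 then turned to -0.058, -0.035 and -0.053 with library totals, log2(RPKM + 1) and log2(RPKM + 0.1), and CTSZ to -0.039, -0.038 and -0.039. Leaving out 1 library gave 6 to 7 members, 10136 to 10259 genes and 30 to 35 list genes called, and log2 values of -0.14 to 0.45 for MMP7 and -0.345 to 0.28 for MMP7 relative to TIMP1. DESeq2 called 9081 genes. ADAM19 lost its call in both RPKM fits (0.11 and 0.13). Same-numbered libraries did not deviate together (correlations 0.006, -0.046 and 0.037 over 12058 genes), and the replicate block called 10810 genes and 7 members. Counts of 7 to 21 limit MMP7.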
